A study of Homo sapiens with 18 samples.

Results

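The comparison described here set DDX3Xoe cells that received guide RNA 395 against DDX3Xoe cells that received the control guide AAVS1, as 3 libraries each, 6 of the 18 libraries of the series. The libraries were chosen by their sample labels alone. All cells were of KNS-42, a human glioma line that expressed the Cas9 nuclease and was grown with puromycin, and RNA was taken on day 7 after the cells received a lentivirus that encodes the guide. DDX3Xoe cells also overexpressed a codon-optimised DDX3X copy, whereas parental cells, used below only for contrast as 3 libraries with guide 395 and 3 with AAVS1, had no such copy. The remaining libraries, 3 with guide 395 and 3 with AAVS1, were of DDX3Yoe cells, which by their label overexpressed DDX3Y. They enter below only where all 18 libraries or all 6 groups are used, as in the expression filter, the pooled variance and the 18-library means. Guide 395 targets the cell's own DDX3X gene, and AAVS1 is a safe-harbour site inside PPP1R12C. Not given in the sources used here are the promoter of the DDX3X copy, whether the line is 1 clone, and the guide sequences. No label ties a replicate to a culture of its own, so the p-values here reflect the spread among these samples, part of which may be technical. The comparison asks what guide 395 did to gene expression where a DDX3X copy was supplied.

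DDX3X is a DEAD-box RNA helicase that helps ribosomes to start on messenger RNAs with structured leaders and takes part in stress granules and in sensing of foreign RNA. Its gene lies on the X chromosome, and a close relative, DDX3Y, lies on the Y chromosome. Interferon-stimulated genes are a set of antiviral genes that signalling from interferon receptors, or from sensors of viral RNA such as RIG-I and MDA5, switches on together through shared transcription factors. These factors bind a short repeated element in the promoters of many such genes, the interferon-stimulated response element.

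No gene passed the test between DDX3Xoe libraries labelled 395 and DDX3Xoe libraries labelled AAVS1. Of 15228 genes tested, 0 (0.0%) passed a Benjamini-Hochberg adjusted p of 0.05 by limma, by edgeR or by DESeq2, against 271 genes (1.78%) for the same guides in parental cells by limma, or 677 with the replicate number as a block. At an unadjusted p under 0.05 the counts were 315 by limma, 273 by edgeR and 373 by DESeq2. Interferon-stimulated genes had a median log2 fold change of 0.49, and DDX3X itself of -0.33, but for both the libraries of the 2 labels overlapped. When both replicate 1 libraries were left out, in which the DDX3X reads run against the guide labels, limma and edgeR again called 0 genes (548 and 358 at an unadjusted p under 0.05). DESeq2 called 1, THOC3, at 11.4 and 0.878 normalised reads in libraries labelled 395, against 0 reads in both libraries labelled AAVS1, which is a few reads in all. The omitted replicate 1 libraries ran the other way for THOC3, at 4.57 (labelled 395) and 82.7 (labelled AAVS1).

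Reads on genes per DDX3Xoe library ranged from 5.67 M to 10.6 M (M, 1e6), and 395 replicate 2 had both the fewest reads and the fewest detected genes, 15744. The mitochondrially encoded share of reads was between 8.02 and 14.6% in libraries labelled 395 and between 11.1 and 13.0% in libraries labelled AAVS1. Values below are normalised reads, which are reads on a gene divided by a size factor of the library, so 1 read was worth between 0.826 and 1.43 normalised reads. The reads come from the 3′ ends of transcripts and do not grow with transcript length, so levels were compared between libraries for 1 gene at a time and never between genes. A level set by fewer cells of a kind and a level set by less RNA per cell cannot be told apart in such samples. Of 19 glioma and neural progenitor markers, 13 averaged at least 10 normalised reads, with SOX2 between 14370.5 and 23241 in libraries labelled 395 and between 13245 and 28004 in libraries labelled AAVS1, and OLIG2 at 0 reads in all 6 libraries. Markers of leukocytes summed to between 12.6 and 46.5 normalised reads in libraries labelled 395 and between 17.7 and 35.1 in libraries labelled AAVS1.

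DDX3X (ENSG00000215301), at chrX:41333284-41364472 on the plus strand of GRCh38, had 1416, 716 and 578 normalised reads in libraries labelled 395 (replicates 1, 2 and 3), against 668, 1504 and 1162 in libraries labelled AAVS1. Replicate 1 ran against the labels: the library labelled 395 had more DDX3X reads than the one labelled AAVS1, whereas replicates 2 and 3 had fewer. By label the means were 903 ± 449 in libraries labelled 395 and 1111 ± 420.3 in libraries labelled AAVS1 (SD, n = 3 each), a log2 fold change of -0.33 with a 95% confidence interval from -0.96 to 0.30 and a limma adjusted p of 1. An exact two-sided permutation test over the 6 libraries gave p = 0.7, and 0.1 is the smallest p that 3 against 3 allow. Leaving out both replicate 1 libraries gave a log2 fold change of -1.04 (interval -1.54 to -0.54), which is a description because that omission was chosen on this very value. In parental cells DDX3X averaged 886 ± 58.8 with guide 395 and 1811 ± 100.2 with AAVS1 (SD, n = 3 each), which is -1.03 on the log2 scale (limma adjusted p = 0.08). Reads from a 3′ end need not cover the guide's target site, and whether reads of the DDX3X copy count towards DDX3X was not stated. DDX3Y and the other Y-linked genes with an X-linked partner, 14 in all, were at 0 reads in every library. That includes the libraries of DDX3Yoe cells, so no read of a supplied DDX3Y copy was counted towards DDX3Y. Whether the same holds for the DDX3X copy and DDX3X was not tested.

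**Figure D1:**
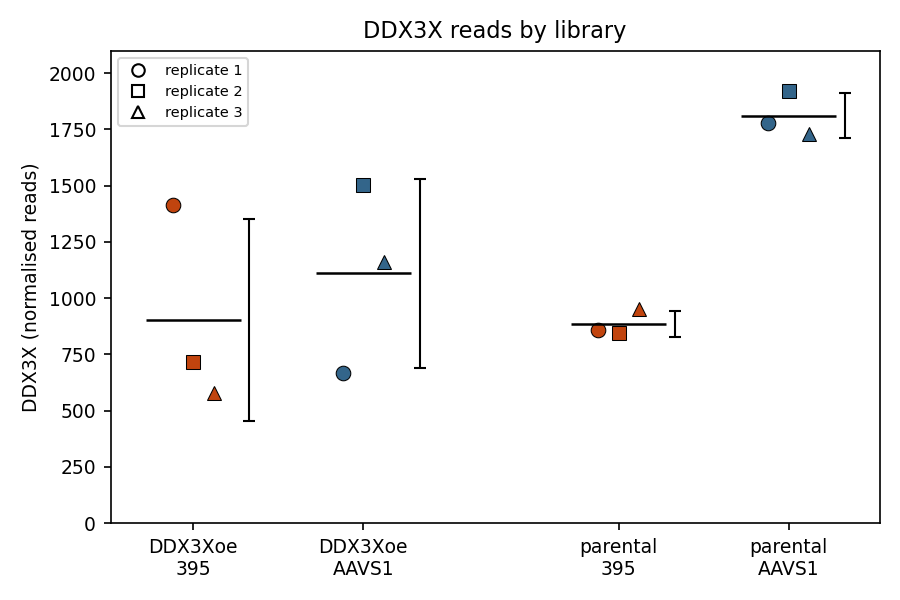
Normalised DDX3X reads (y axis) in each library of DDX3Xoe and parental cells, by guide label; symbols mark the replicate number, the horizontal line is the mean of 3 libraries and the bar beside it is ± 1 SD. In DDX3Xoe cells the library labelled 395 replicate 1 lies at 1416, among libraries labelled AAVS1, and the one labelled AAVS1 replicate 1 lies at 668, among libraries labelled 395; the parental groups do not overlap.

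The 3 libraries of a label were no more alike than libraries of different labels. The root mean square log2 distance over tested genes had a median of 1.13 (range 0.886 to 1.51, 6 pairs) between libraries of the same label, and of 1.11 (range 0.661 to 1.41, 9 pairs) between libraries of different labels. The closest pair was 395 replicate 3 and AAVS1 replicate 3, and the farthest was AAVS1 replicate 1 and AAVS1 replicate 2. The typical gene had a within-group SD of 0.434 (log2) in libraries labelled 395 and of 0.564 in libraries labelled AAVS1, the widest of the 6 groups of the series. The 95% interval of a log2 fold change, from the variance pooled over the 6 groups and so as wide in the parental comparison, reached a median of 0.848 to each side, and for 6515 genes (42.8%) it lay wholly within ±1. For the other genes the interval reached past a 2-fold difference in at least 1 direction. Without both replicate 1 libraries the interval reached a median of 0.986 to each side, and it lay wholly within ±1 for 4416 of 15228 genes. The pooled variance includes groups with a smaller spread than libraries labelled AAVS1, so the intervals by label may be too narrow for DDX3Xoe cells. Those intervals describe the libraries as labelled, with replicate 1 included.

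Genes with an unadjusted limma p under 0.05 numbered 315 (2.07%), of which 104 were higher (0.683%) and 211 lower (1.39%) in libraries labelled 395. Of all tested genes 48.2% had a log2 fold change above 0. All 3 libraries labelled 395 lay above all 3 labelled AAVS1 for 278 genes (1.83%) and below them for 311 genes (2.04%). Leaving out both replicate 1 libraries, 548 genes (3.60%) had an unadjusted p under 0.05, 166 of them higher (1.09%) and 382 lower (2.51%), and the libraries did not overlap for 1491 genes (9.79%) in the higher direction and 1582 genes (10.4%) in the lower. In parental cells the libraries did not overlap for 10.7% of genes in the higher and 9.86% in the lower direction.

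Among genes whose libraries did not overlap, those with the largest positive values are given first as values only, since none was called (limma adjusted p of 1 for each). BICC1 (ENSG00000122870, chr10:58513140-58831437), an RNA-binding protein that regulates translation in kidney and embryo, had 147, 204 and 162 normalised reads in libraries labelled 395, against 83.7, 72.4 and 109.9 in libraries labelled AAVS1. Its log2 fold change was 0.95 (SE 0.31, unadjusted p = 0.00605), and it was 1.02 without both replicate 1 libraries and 0.17 in parental cells. EIF4A1 (chr17:7572706-7579005), the DEAD-box helicase of the cap-binding complex that shares its role in leader unwinding with DDX3X, had 517, 597 and 314 normalised reads in libraries labelled 395, against 226, 228 and 282 in libraries labelled AAVS1. That is a log2 fold change of 0.91 (SE 0.33), which was 0.77 without both replicate 1 libraries and -0.57 in parental cells. Its reads are uncertain, because a readthrough gene, SENP3-EIF4A1, is annotated over the same exons.

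MRPL14, a protein of the mitochondrial ribosome, had 382, 510.1 and 333 normalised reads in libraries labelled 395, against 316, 189 and 259 in libraries labelled AAVS1 (log2 fold change 0.69, SE 0.26). In parental cells it lay on the other side, at -0.80. KDM6A, an X-linked histone H3 lysine demethylase with a relative on the Y chromosome, had 114, 166 and 124 normalised reads in libraries labelled 395, against 79.8, 69.2 and 103 in libraries labelled AAVS1 (0.67). IFT81, a carrier of tubulin into cilia, had 196, 306 and 186 normalised reads in libraries labelled 395, against 67, 181 and 125 in libraries labelled AAVS1 (0.95). Other genes on that side had log2 fold changes of 0.83 for ERCC6 (transcription-coupled DNA repair), 0.76 for COL4A4 (a basement membrane collagen), 0.74 for SPACA6, 0.71 for ATAD2B, 0.68 for TRMT11 (a tRNA methyltransferase) and 0.67 for OTUD6B (a deubiquitinase). Of these genes, ATAD2B alone was called in parental cells, where its log2 fold change was 1.24.

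Of the genes with lower values, ATN1, a transcriptional corepressor, had 179, 190.1 and 261 normalised reads in libraries labelled 395, against 1254, 404 and 319 in libraries labelled AAVS1. AAVS1 replicate 1 lay far above the rest: the log2 fold change was -1.39 by label and -0.69 without both replicate 1 libraries. EMP3, an epithelial membrane protein family member, had 106, 110.0 and 138 normalised reads in libraries labelled 395, against 401, 198 and 167 in libraries labelled AAVS1 (-1.01, SE 0.34, unadjusted p = 0.00844, and -0.56 without both replicate 1 libraries).

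TBC1D24, a regulator of vesicle traffic at synapses, had a log2 fold change of -0.91 by label and -1.02 without both replicate 1 libraries. It had 162, 77.2 and 222 normalised reads in libraries labelled 395, against 262, 256 and 278 in libraries labelled AAVS1. DLX1, a homeobox factor of forebrain interneurons, had 154, 120.0 and 155 normalised reads in libraries labelled 395, against 347, 296 and 166 in libraries labelled AAVS1 (-0.85). EIF5AL1 gave -1.02, but it is a near-identical copy of EIF5A and its reads are uncertain. Other lower genes were CREG1 (-1.07), KBTBD7 (-0.88), SLIT3, a guidance ligand (-0.75), SLC35A2, the Golgi UDP-galactose transporter (-0.75), CLMN (-0.70) and C12orf4 (-0.69). None of the genes named by size in these paragraphs passed the adjusted threshold by label or without both replicate 1 libraries.

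Ranked by p without both replicate 1 libraries, DDX3X came first among the lower genes, which the omission, chosen on DDX3X, favours. The next was GLIS3-AS1, with 162, 18.6 and 115 normalised reads in libraries labelled 395, against 134, 236 and 143 in libraries labelled AAVS1, so its replicate 1 libraries also lay on the other side. CLSTN3, a synaptic adhesion protein, had 63.9, 60 and 137 normalised reads in libraries labelled 395, against 48.3, 251 and 184 in libraries labelled AAVS1, and IER3, an early gene of NF-kB signalling, 242, 80 and 118 in libraries labelled 395, against 99.5, 248 and 212. The log2 fold changes without both replicate 1 libraries were -1.96 for GLIS3-AS1, -1.24 for CLSTN3 and -1.23 for IER3. On the higher side stood BICC1 (1.02), MRPL14 (0.89), P4HTM, a prolyl hydroxylase of the endoplasmic reticulum (1.3), the zinc finger genes ZNF175 (1.51), ZNF426 (0.88) and ZNF83 (1.19), PREP, a peptidase (1.03), LYSMD3 (1.43), SIX5 (0.66) and UBA2, which activates SUMO (0.66). P4HTM had 177, 229 and 113 normalised reads in libraries labelled 395, against 247, 44.7 and 94.2 in libraries labelled AAVS1, where replicate 1 again lay apart from 2 and 3. The limma adjusted p was 1 for every gene of this ranking.

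The interferon-stimulated genes are shown with their promoters because by label they had the highest median of any list, 0.49, and varied together from library to library. With both replicate 1 libraries left out, the median of MHC class I antigen presentation was higher, 0.51 against 0.38. The interferon-stimulated response element was searched as a pair of TTTC blocks with any 2 bases between them, on both strands and with overlapping matches counted, in RefSeq promoters of 300 bases on GRCh38.p14. It occurred in 25 of the 43 interferon-stimulated genes with a promoter in the table (58.1%), against 1255 of all 35116 promoters (3.57%). The share was similar for genes of MHC class I antigen presentation, at 8 of 14 (57.1%). CMPK2, with the largest log2 fold change of the interferon list (1.99), had no match. A match describes letters and is not a bound site. The 3 promoters below, chosen after the values were seen, belong to a small interferon-induced membrane protein (IFI6, chr1:27672143-27672442, minus strand), an antiviral RNA-binding adaptor (IFIT3, chr10:89327747-89328046, plus strand) and the double-stranded RNA sensor MDA5 (IFIH1, chr2:162318635-162318934, minus strand), each read in the direction of transcription with the matches in capitals.
IFI6: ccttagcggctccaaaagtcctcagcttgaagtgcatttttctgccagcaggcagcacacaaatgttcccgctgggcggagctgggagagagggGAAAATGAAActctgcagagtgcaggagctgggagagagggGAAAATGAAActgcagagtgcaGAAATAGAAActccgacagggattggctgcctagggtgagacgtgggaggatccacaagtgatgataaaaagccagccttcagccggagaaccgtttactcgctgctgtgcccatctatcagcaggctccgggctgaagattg
IFIT3: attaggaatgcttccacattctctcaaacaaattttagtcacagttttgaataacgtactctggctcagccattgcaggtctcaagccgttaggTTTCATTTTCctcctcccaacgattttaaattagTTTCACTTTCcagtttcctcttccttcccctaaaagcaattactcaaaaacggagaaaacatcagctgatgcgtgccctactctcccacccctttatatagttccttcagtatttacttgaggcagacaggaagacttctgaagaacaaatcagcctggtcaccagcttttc
IFIH1: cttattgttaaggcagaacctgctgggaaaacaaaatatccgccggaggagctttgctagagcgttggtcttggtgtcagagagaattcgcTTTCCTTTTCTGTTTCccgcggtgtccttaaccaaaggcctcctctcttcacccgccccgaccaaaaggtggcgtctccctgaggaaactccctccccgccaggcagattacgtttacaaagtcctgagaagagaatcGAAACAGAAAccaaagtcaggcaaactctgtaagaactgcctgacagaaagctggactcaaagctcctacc
IFI6 holds 3 matches on the reverse strand, IFIT3 holds 2 on the forward strand, and IFIH1 holds 2 overlapping matches on the forward strand and 1 on the reverse.

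Of the 55 interferon-stimulated genes, 54 were tested and EPSTI1 was below the filter. By label, 51 of the 54 had a log2 fold change above 0, against 48.2% of all genes, and their median was 0.49. None was called, none had an unadjusted p under 0.05 and for none did the libraries separate, where 1.83% of all genes separated upwards. The median was 0.38 without both replicate 1 libraries, when 46 of 54 lay above 0. In parental cells the median was 1.5, 53 of 54 lay above 0, against 51.1% of all genes, and 5 of 54 were called higher (IFIT2, CMPK2, IFI27, ISG20 and IRF7), where 0.978% of all genes were.

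The members varied together from library to library, and the labels overlapped. The median deviation of the members from their mean over all 18 libraries was -0.79, 0.89 and -0.18 (log2) in libraries labelled 395, against -1.74, 0.21 and -0.36 in libraries labelled AAVS1. In parental cells it was 1.38, 1.13 and 1.3 with guide 395, against -0.59, -0.80 and 0.33 with AAVS1. 395 replicate 2 held the highest of the 6 values for 43 of 54 members (79.6%, against 17.7% of all genes), and AAVS1 replicate 1 held the lowest for 46 of 54 (85.2%, against 23.0%). The median log2 fold change was 0.07 without 395 replicate 2 and 0.05 without AAVS1 replicate 1. 395 replicate 2 is also the library with the fewest reads and the lowest mitochondrial share, and the part of these in the values was not tested.

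**Figure D2:**
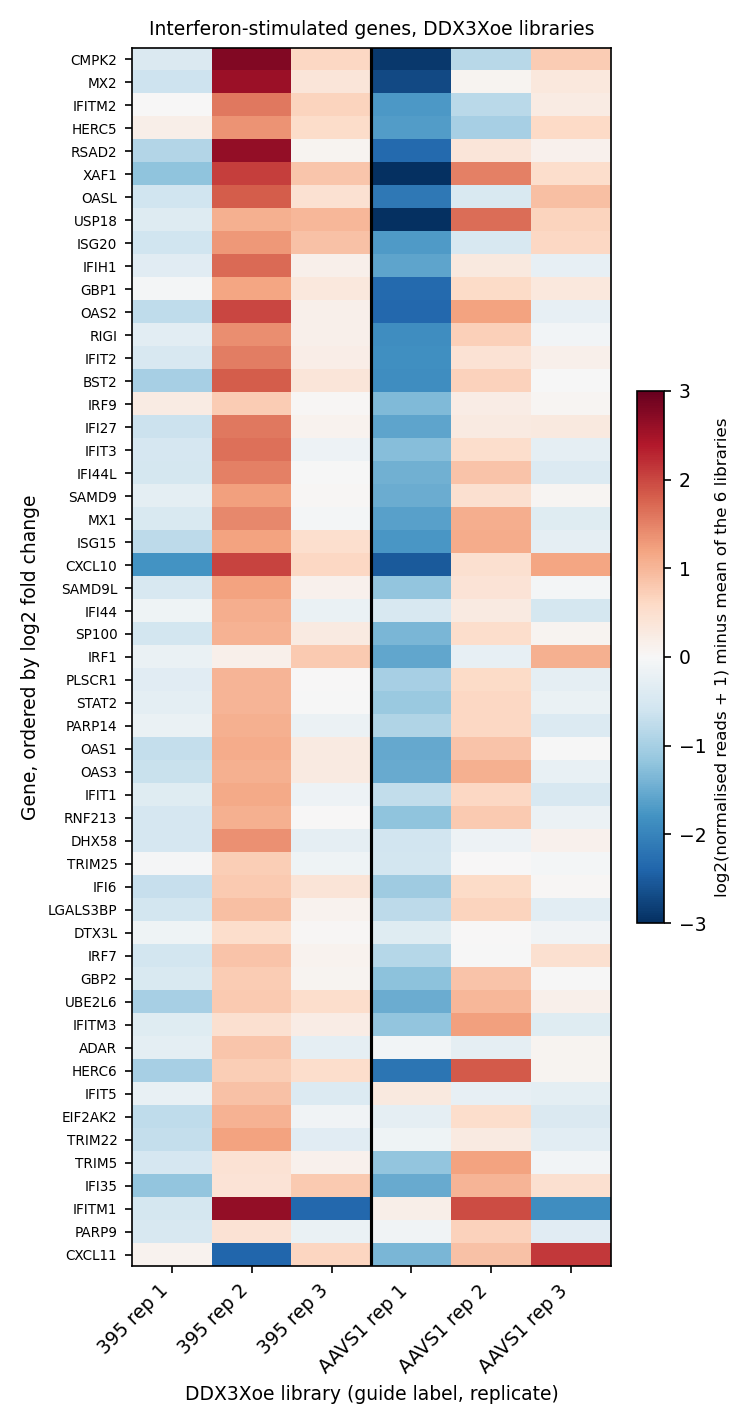
Each row is 1 of 53 of the 54 tested interferon-stimulated genes, ordered by log2 fold change, and each column is 1 DDX3Xoe library; colour is log2(normalised reads + 1) minus the mean of the 6 libraries, red above and blue below. Over the whole list of 54, 395 replicate 2 is the highest of the 6 for 43 genes and AAVS1 replicate 1 is the lowest for 46.

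IFI6 had 21564, 59916 and 45445 normalised reads in libraries labelled 395, against 16555, 51913 and 35855 in libraries labelled AAVS1. The spread within each label exceeded the difference between labels, and its log2 fold change was 0.31 (SE 0.62), against 1.62 in parental cells. IFIT3 had 2834, 12692 and 3625 normalised reads in libraries labelled 395, against 1653, 5800.4 and 3337 in libraries labelled AAVS1 (0.68, SE 0.63, and 2.09 in parental cells). IFIT1, which binds viral messenger RNA that lacks a methylated cap, had 3242, 9049.8 and 3709.8 normalised reads in libraries labelled 395, against 2472, 6388 and 2959 in libraries labelled AAVS1 (0.41). For all 3 of these genes replicate 2 was the highest and replicate 1 the lowest under both labels.

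Among the RNA sensors, IFIH1 had 629, 2612 and 892 normalised reads in libraries labelled 395, against 267, 979 and 671 in libraries labelled AAVS1. Its log2 fold change was 1.02 (SE 0.63) by label, 0.91 without both replicate 1 libraries and 2.18 in parental cells. RIGI, the sensor RIG-I, had 1279, 4227 and 1778 normalised reads in libraries labelled 395, against 436, 2626 and 1506 in libraries labelled AAVS1 (0.82). The antiviral effector MX2, which blocks nuclear entry of viral genomes, had 123, 1129 and 244 normalised reads in libraries labelled 395, against 28.6, 203 and 239 in libraries labelled AAVS1. Its log2 fold change of 1.52 had an interval from -0.51 to 3.56, and it was 3.64 in parental cells.

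The largest value in the list belonged to CMPK2, a mitochondrial nucleotide kinase, with 4.57, 50 and 10.5 normalised reads in libraries labelled 395, against 0, 3.2 and 11.6 in libraries labelled AAVS1. The 0 in AAVS1 replicate 1 allows up to 2.96 normalised reads (3 reads, counting error only), and the log2 fold change of 1.99 (SE 1.00) rests on few reads. USP18, which restrains interferon receptor signalling, shows how far the replicate 1 libraries can move a value. It had 372, 1025 and 981 normalised reads in libraries labelled 395, against 29.6, 1560.3 and 785 in libraries labelled AAVS1. Its log2 fold change was 1.11 by label and -0.14 without both replicate 1 libraries. ISG15, the ubiquitin-like modifier, had 1279, 5060.0 and 3109 normalised reads in libraries labelled 395, against 658, 4745 and 1838 in libraries labelled AAVS1 (0.60).

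The 3 members below 0 were IFITM1 (-0.17), PARP9 (-0.18) and CXCL11 (-1.08). CXCL11, a chemokine, had 4.57, 0 and 7.02 normalised reads in libraries labelled 395, against 0.985, 8.52 and 21.5 in libraries labelled AAVS1, all close to the level of a few reads. PARP9, a partner of DTX3L, had 879, 1650.5 and 1062 normalised reads in libraries labelled 395, against 1145, 1999 and 972 in libraries labelled AAVS1. With replicate 1 left out under both labels, the libraries labelled 395 lay above those labelled AAVS1 for DTX3L, ISG20, MX2 and IFITM2, 4 of 54 (7.41%, against 9.79% of all genes), and below them for CXCL11. A share of 7.41% is near that of all genes. IFITM2 shares reads with its near-identical neighbours IFITM1 and IFITM3 and is uncertain.

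Genes of MHC class I antigen presentation, which load peptides onto HLA molecules for T cells, had a median log2 fold change of 0.38 over 17 tested genes of 18. It was 0.51 without both replicate 1 libraries and 1.64 in parental cells, where 7 of the 17 were called higher, against 0.978% of all genes. Without 395 replicate 2 the median in DDX3Xoe cells was -0.04, and with library quality weights it was -0.02. With both replicate 1 libraries left out it was 0.09 without 395 replicate 2 and 1.07 without 395 replicate 3. None was called in DDX3Xoe cells, and 14 of 17 were highest in 395 replicate 2. B2M, the invariant light chain, had 10114, 39121 and 23922 normalised reads in libraries labelled 395, against 13318, 30784 and 21625 in libraries labelled AAVS1, a log2 fold change of 0.03 against 1.61 in parental cells. HLA-B had 1870.2, 11472 and 3633 normalised reads in libraries labelled 395, against 2412, 4013 and 3193 in libraries labelled AAVS1 (0.44). In parental cells it was called, at 2.89, and it shares reads with other HLA genes. NLRC5, the transcriptional activator of these genes, had 226, 674 and 266 normalised reads in libraries labelled 395, against 109, 267 and 257 in libraries labelled AAVS1 (0.81). Only PSME2, a proteasome activator subunit, separated by label, upwards (5.88%, against 1.83% of all genes). It had 750.2, 997 and 768 normalised reads in libraries labelled 395, against 636, 697 and 734 in libraries labelled AAVS1 (0.27). Without both replicate 1 libraries 6 of 17 separated upwards (35.3%, against 9.79% of all genes): PSME2, ERAP1, TAP2, HLA-C, HLA-E and PSMB9.

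NF-kB and inflammatory genes had a median log2 fold change of -0.06 over 18 tested genes, -0.17 without both replicate 1 libraries and 1.31 in parental cells. None was called in DDX3Xoe cells. PTGS2, the inducible prostaglandin synthase, was called higher in parental cells, and it had 409.9, 342 and 277 normalised reads in libraries labelled 395, against 182, 295 and 345 in libraries labelled AAVS1 of DDX3Xoe cells (0.35). From replicates 2 and 3 alone, 6 of the 18 (33.3%, against 10.4% of all genes) lay lower with guide 395: the NF-kB subunits NFKB2 and RELB, the feedback inhibitor TNFAIP3, the adhesion receptor ICAM1, IER3 and the chemokine CCL5. TNFAIP3, for example, had 140.4, 194 and 199 normalised reads in libraries labelled 395, against 49.3, 397 and 401 in libraries labelled AAVS1.

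Upstream of these, 17 tested genes of nucleic acid sensing and interferon signalling had a median of 0.14, against 0.22 without both replicate 1 libraries and 0.68 in parental cells. MAVS, the adaptor of RIG-I and MDA5, had 1651, 1583 and 1914 normalised reads in libraries labelled 395, against 1691, 1839 and 1705 in libraries labelled AAVS1, a log2 fold change of -0.03 with an interval from -0.47 to 0.42. ZBP1, a sensor of left-handed nucleic acids, was called higher in parental cells, and in DDX3Xoe cells it had 0, 1.43 and 6.15 normalised reads in libraries labelled 395, against 0.985, 0 and 0 in libraries labelled AAVS1. These are at most a few reads per library, so no fold is given for DDX3Xoe cells.

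**Figure D3:**
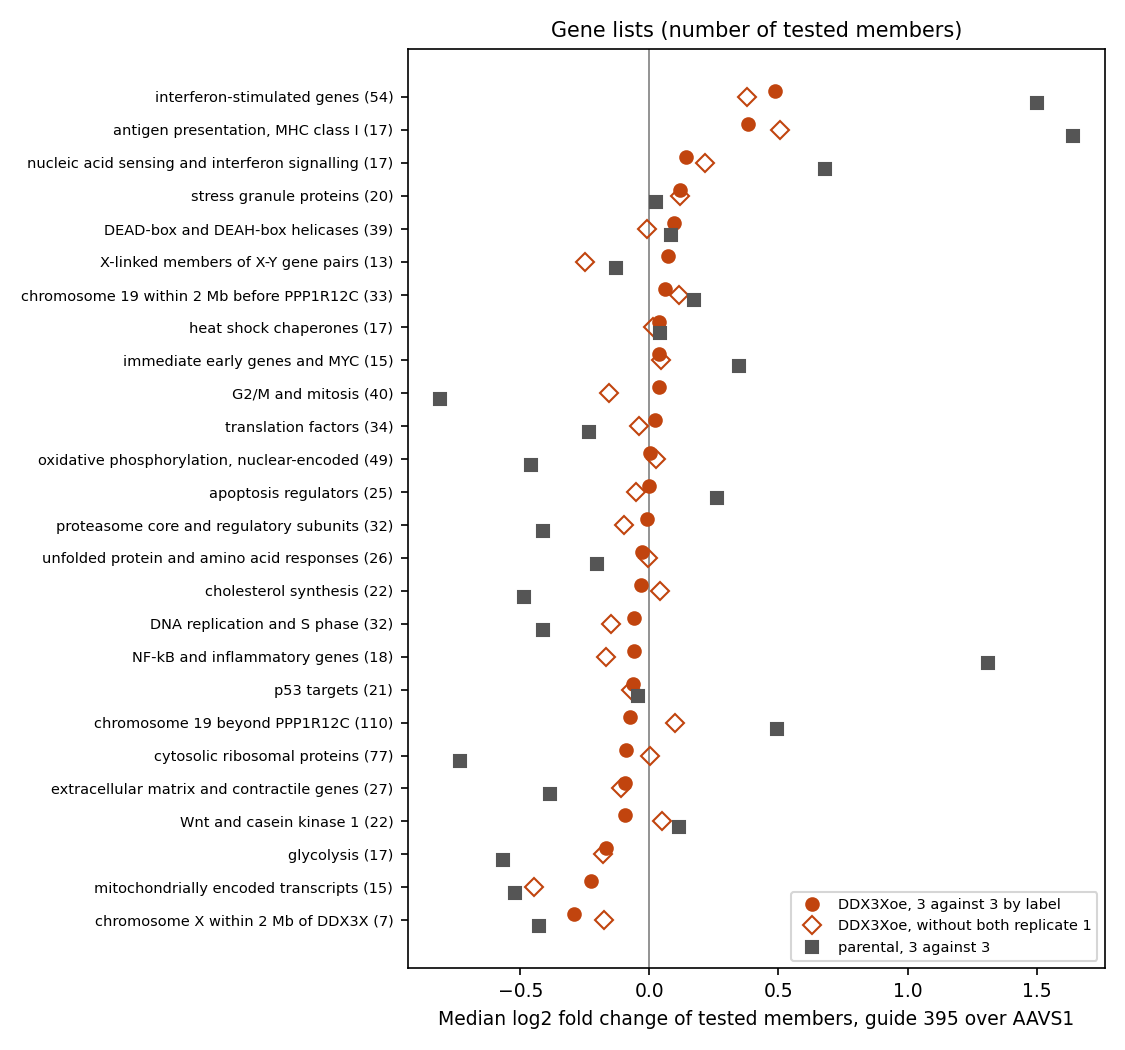
Median log2 fold change, guide 395 over AAVS1 (x axis), of the tested members of each gene list (y axis, number of members in brackets): filled circles for DDX3Xoe by label, open diamonds for DDX3Xoe without both replicate 1 libraries, squares for parental cells. In DDX3Xoe cells by label the medians lie between -0.29 and 0.49, and in parental cells between -0.81 and 1.64.

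Machinery close to DDX3X in function showed small medians. DEAD-box and DEAH-box helicases had a median of 0.10 over 39 tested genes, with EIF4A1 and DDX20 as the 2 members (5.13%, against 1.83% of all genes) whose libraries labelled 395 lay above those labelled AAVS1. DDX5, a helicase of splicing and transcription, had 4486, 5146 and 3372 normalised reads in libraries labelled 395, against 4057, 3019.5 and 3030.5 in libraries labelled AAVS1 (0.36, interval -0.15 to 0.86). Translation factors had a median of 0.02 over 34 genes, and EEF2, which moves the ribosome along the message, had 16253, 12481 and 19134 normalised reads in libraries labelled 395, against 31416, 14936 and 16759.5 in libraries labelled AAVS1 (-0.34). Cytosolic ribosomal proteins had a median of -0.09 over 77 genes, 0.00 without both replicate 1 libraries and -0.73 in parental cells, with no library separation in DDX3Xoe cells by label. RPS3 is an example, with 19457, 15852 and 34619.7 normalised reads in libraries labelled 395, against 16308, 34015 and 30739 in libraries labelled AAVS1. Many ribosomal protein genes have processed pseudogenes, so reads may be split between copies.

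The X-linked members of X-Y gene pairs had a median of 0.07 over 13 tested genes and -0.25 without both replicate 1 libraries. KDM5C, a histone H3 lysine 4 demethylase, was the member whose libraries lay lower (7.69%, against 2.04% of all genes). It had 492, 619 and 682 normalised reads in libraries labelled 395, against 822, 1006 and 725 in libraries labelled AAVS1 (-0.51, interval -0.99 to -0.03, adjusted p of 1). KDM6A was the member whose libraries lay higher, as above (7.69%, against 1.83% of all genes). The 7 tested genes within 2 Mb of DDX3X had a median of -0.29, and of -0.18 without both replicate 1 libraries. USP9X, a deubiquitinase, had 722, 745 and 725 normalised reads in libraries labelled 395, against 593, 1351 and 906 in libraries labelled AAVS1 (-0.30). On chromosome 19, where the control guide cuts, the median was -0.07 for 110 genes beyond PPP1R12C and 0.06 for 33 genes within 2 Mb before it, against 0.50 and 0.17 in parental cells. PPP1R12C itself had 234, 349 and 273 normalised reads in libraries labelled 395, against 444, 214 and 229 in libraries labelled AAVS1 (0.01).

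For proliferation and stress genes the libraries numbered 3 stood apart under both labels. G2/M genes had a median log2 fold change of 0.04 over 40 genes, -0.16 without both replicate 1 libraries and -0.81 in parental cells. Both libraries numbered 3 were the lowest of the 6 for 28 of the 40 (70.0%, against 8.54% of all genes). TOP2A, the mitotic DNA topoisomerase, had 11611, 5103 and 3469 normalised reads in libraries labelled 395, against 5304, 10447 and 4468 in libraries labelled AAVS1. S phase genes had a median of -0.06 over 32 genes, and of -0.15 without both replicate 1 libraries. CCNE1, cyclin E1, was the only member whose libraries separated, downwards (3.1%, near the 2.04% of all genes). It had 60.5, 64.3 and 56.2 normalised reads in libraries labelled 395, against 82.7, 91.6 and 70.2 in libraries labelled AAVS1 (-0.42). Genes of the unfolded protein and amino acid responses had a median of -0.03 over 26 genes, and of -0.004 without both replicate 1 libraries. Both libraries numbered 3 were the highest for 22 of the 26 (84.6%, against 9.01% of all genes). HSPA5, the chaperone BiP, had 11062, 10983 and 59557 normalised reads in libraries labelled 395, against 8336, 10449.5 and 58323 in libraries labelled AAVS1. GDF15, a stress hormone, had 156, 159 and 2518 normalised reads in libraries labelled 395, against 103, 153 and 2195 in libraries labelled AAVS1.

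In the remaining lists no member was called in DDX3Xoe cells either. The medians by label were -0.23 for 15 mitochondrially encoded transcripts, -0.17 for 17 glycolysis genes, -0.10 for 22 genes of Wnt signalling and casein kinase 1, -0.09 for 27 extracellular matrix and contractile genes, -0.06 for 21 p53 targets, -0.03 for 22 genes of cholesterol synthesis, -0.01 for 32 proteasome subunits, 0.00 for 25 apoptosis regulators and for 49 nuclear genes of oxidative phosphorylation, 0.04 for 17 heat shock chaperones and for 15 immediate early genes with MYC, and 0.12 for 20 stress granule proteins. Without both replicate 1 libraries the mitochondrial median was -0.45, and 14 of the 15 lay below 0, against 51.7% of all genes. 395 replicate 2 was the lowest of the 6 libraries for 12 of these 15 (80.0%, against 22.4% of all genes). The other medians of this paragraph then lay between -0.18 (glycolysis) and 0.12 (stress granule proteins). The extracellular matrix and contractile list included 5 genes called lower in parental cells, where 0.801% of all genes were, among them COL1A1 and TAGLN. COL1A1, a fibrillar collagen, had 183, 247 and 211 normalised reads in DDX3Xoe libraries labelled 395, against 285, 187 and 216 in those labelled AAVS1 (-0.09, against -2.43 in parental cells). TAGLN, an actin-binding protein of smooth muscle, had 293, 306 and 687 normalised reads in libraries labelled 395, against 574, 477 and 747 in libraries labelled AAVS1 (-0.58, against -1.62 in parental cells). EGR2, an early growth response factor, was the 1 of 15 immediate early genes with MYC that separated upwards (6.67%, against 1.83% of all genes). It had 49.1, 97.2 and 43 normalised reads in libraries labelled 395, against 40.4, 32 and 36.4 in libraries labelled AAVS1 (0.70).

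The 271 genes called in parental cells were then followed into DDX3Xoe cells. Their parental values chose them, so those values are a description and are given with no test. The 149 genes called higher in parental cells (median log2 fold change 1.68) had a median of 0.12 in DDX3Xoe cells, where 97 of them (65.1%) lay above 0, against 48.2% of all genes, and the libraries of 7 (4.70%) separated upwards, against 1.83% of all genes. Without both replicate 1 libraries the median was 0.21, 107 (71.8%) lay above 0, against 48.3% of all genes, and 33 (22.1%) separated upwards, against 9.79% of all genes. The 122 genes called lower in parental cells (median -1.5) had a median of -0.12 in DDX3Xoe cells, 83 of them (68.0%) lay below 0, against 51.8% of all genes, and 3 (2.46%) separated downwards, against 2.04% of all genes. From replicates 2 and 3 alone these values were -0.22, 90 genes (73.8%, against 51.7% of all genes) and 28 genes (23.0%), against 10.4% of all genes separating downwards.

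Across genes, which are not independent replicates, Pearson's r between the log2 fold changes in DDX3Xoe and parental cells was 0.105 over all 15228 genes and 0.425 over the 271, and 0.199 and 0.523 without both replicate 1 libraries.

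**Figure D4:**
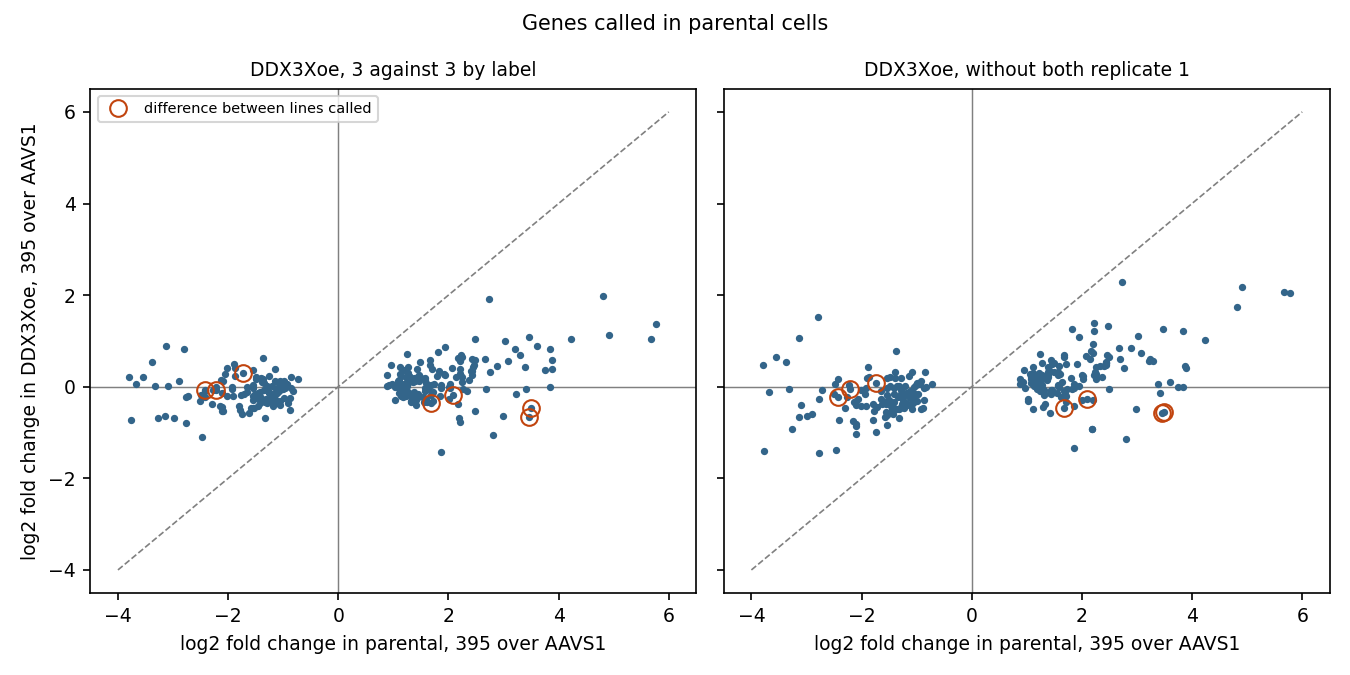
Each point is 1 of the 271 genes called in parental cells, with its log2 fold change, guide 395 over AAVS1, in DDX3Xoe cells (y axis) against that in parental cells (x axis); the left panel is by label and the right panel is without both replicate 1 libraries. The dashed line marks equal values; most points lie near 0 on the y axis, with medians of 0.12 for genes called higher and -0.12 for genes called lower by label, and the 7 circled genes had a called difference between the guide effects by label.

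The difference between the guide effect in DDX3Xoe cells and the guide effect in parental cells was tested directly in the same limma fit, with 7 genes called (0.046% of 15228), 3 of them above 0 (0.0197%) and 4 below (0.0263%), and 0 without both replicate 1 libraries, when 976 had an unadjusted p under 0.05. Without both replicate 1 libraries edgeR also called 0 and DESeq2 called 20. By label the count was 6 with edgeR, 86 with DESeq2, 57 with library quality weights, 16 with the replicate block and 0 without both DDX3Xoe libraries numbered 3, and leaving out 1 library gave 0 to 4. Those weights were 16.2 for DDX3Xoe AAVS1 replicate 3, against 0.309 and 0.322 for AAVS1 replicates 1 and 2. The weighted AAVS1 mean thus rested mostly on 1 library. For 6 of the 7, the 3 libraries labelled 395 overlapped those labelled AAVS1 in DDX3Xoe cells, and for all 7 the parental libraries did not overlap. The call chose these genes on the same libraries, so these counts are a description. Over all genes the DDX3Xoe libraries separated for 1.83% upwards and 2.04% downwards, and the parental libraries for 10.7% and 9.86%. KCNMB3, a subunit of potassium channels, averaged 24.2 ± 15.2 normalised reads in DDX3Xoe libraries labelled 395 and 33.7 ± 6.37 in those labelled AAVS1, against 239 ± 43.0 with guide 395 and 21.8 ± 8.68 with AAVS1 in parental cells (SD, n = 3 each). The effect in DDX3Xoe cells minus that in parental cells was -4.11 (SE 0.66, adjusted p 0.0384 by limma). TOB2, an antiproliferative partner of the deadenylase complex, averaged 387 ± 31.3 and 449.8 ± 132 in DDX3Xoe libraries labelled 395 and AAVS1, against 1470 ± 325 and 349.5 ± 108 in parental cells with guide 395 and AAVS1, a difference of -2.27.

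Smooth muscle actin, ACTA2, averaged 719.8 ± 229 normalised reads in DDX3Xoe libraries labelled 395 and 741 ± 171 in those labelled AAVS1, against 204 ± 34.3 with guide 395 and 1107 ± 254 with AAVS1 in parental cells. Its difference of 2.36 (SE 0.38, limma adjusted p 0.0384) came with a log2 fold change of -0.06 in DDX3Xoe cells and -2.43 in parental cells. TMOD1, which caps actin filaments, had a difference of 2.15 and PTRHD1, a member of a peptidyl-tRNA hydrolase family, of 2.04. CBARP, a regulator of calcium channels, had a difference of -2.04, and its libraries did separate in DDX3Xoe cells, in the lower direction, with 201, 203 and 172 normalised reads in libraries labelled 395, against 226, 255 and 261 in libraries labelled AAVS1. The pseudogene ZDHHC8BP had a difference of -3.95, and its reads may be shared with its parent gene ZDHHC8. From replicates 2 and 3 of DDX3Xoe cells the 7 differences kept their sign, with limma adjusted p between 0.167 and 0.263. That fit shares most libraries with the fit that chose the genes, so a kept sign is no separate evidence. Beside that, leaving out 1 of the 12 libraries at a time left between 0 and 4 genes called in all.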

How the data were processed

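Gene expression was measured in 18 libraries of KNS-42 cells on day 7 after transduction, 6 of them DDX3Xoe, with a 3′ mRNA kit, per the labels' protocols. The authors deposited a normalised signal, gene counts divided by a size factor, for 58050 Ensembl identifiers. The build GRCh38 and the tools featureCounts 1.5.1, limma, RSEM 1.3.0 and STAR 2.5.2b are named, with no role, in the submitters' processing notes. Annotation version and strand setting are not given in the sources used here. Whole reads were recovered for 100% of values (tolerance 0.01) by taking a column's smallest positive value as 1 read, which gave 5.67 M to 13.2 M reads per library. GENCODE 29 held 57446 identifiers, and 29485 were at 0 in every library.

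Genes with at least 10 in at least 3 libraries (15228) were tested as log2(value + 1) with limma 3.58.1 in R 4.3.3, as 6 group means over 18 libraries with an intensity trend and Benjamini-Hochberg adjustment within a comparison. A fold change on this scale understates that of low genes. Calls need an adjusted p under 0.05. Alternatives were edgeR 4.0.16 and DESeq2 1.42.0 on recovered reads, pseudocounts of 0.1 and 5, no filter or a filter of 50, other normalisations, moderation and weights, a replicate block and leaving out libraries. The code was tested on simulated data. Promoters came from RefSeq (GRCh38.p14). Groups came from the labels, and the members and lists were chosen with earlier results of these data known. Named genes were DDX3X, DDX3Y, and, above the 40th percentile of mean log2 value, the 12 highest and 12 lowest log2 fold changes among genes whose libraries do not overlap, the 10 smallest p in each direction without both replicate 1 libraries, called differences from parental, and per list the 3 members with the highest mean and the 2 with the smallest p. Others, and list members named for separation or for parental calls, were chosen after their values were seen. A few genes that this rule names are not reported here. Replicate pairs of DDX3Xoe cells differed by more than counting noise, with a chi-square per degree of freedom of 44.3 to 154.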

Additional observations from a re-analysis of the deposited data

Results flagged for a closer look

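The guide effect differed between DDX3Xoe and parental cells for 7 genes by a test of the difference itself (limma, adjusted p under 0.05). The log2 difference, DDX3Xoe minus parental, was -4.11 for KCNMB3, -3.95 for ZDHHC8BP, -2.27 for TOB2, -2.04 for CBARP, 2.04 for PTRHD1, 2.15 for TMOD1 and 2.36 for ACTA2. Of the 12 fits that each left out 1 library, ZDHHC8BP was called in 3, KCNMB3, PTRHD1 and ACTA2 in 2 each, and TOB2, CBARP and TMOD1 in 0. No sign changed in any of these 12 fits, which share most libraries with the fit that chose the genes.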

How the results depend on the processing

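By label, 0 genes were called in DDX3Xoe cells under every alternative run, counting edgeR (273 genes at an unadjusted p under 0.05) and DESeq2 (373). Without both replicate 1 libraries the count of 0 became 1 with DESeq2, 13 with no filter, each at 0 reads in both remaining libraries of a label, and 106 without both libraries numbered 3 as well, and leaving out 1 further library gave 0 to 160, the most without 395 replicate 3. In fits with 1 library in a group, that library is assumed to vary like the others. The 7 called differences from parental became 86 with DESeq2, 57 with library quality weights, 4 with median-centring or without the intensity trend, 1 with only the groups compared, 16 with the replicate block, 1 without both libraries numbered 2 and 0 without both numbered 3, and 0 to 4 when leaving out 1 library. Without both replicate 1 libraries the 0 differences became 20 with DESeq2, 11 with no filter, 1 without the trend, 1 with the replicate block and 26 without both numbered 3, and 0 to 47 when leaving out 1 library. The cause was not tested. Under library quality weights the AAVS1 mean of DDX3Xoe cells rested mostly on replicate 3. In DDX3Xoe cells same-numbered libraries' deviations correlated at 0.23, -0.028 and 0.30 for numbers 1, 2 and 3. The numbers thus pair these libraries at most in part. In parental cells these deviations correlated at 0.57, 0.20 and 0.28. The block takes the numbers as pairs. Added for parental cells after seeing the data, it gave 677 parental calls, which include all 271. The block left the 0 calls in DDX3Xoe cells at 0, by label and without both replicate 1 libraries.

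DDX3X by label lay between -0.71 and -0.06 when leaving out 1 library, and was 0.04 without both DDX3Xoe libraries numbered 2 and 0.01 without both numbered 3. Under the other alternatives it lay between -0.33 and -0.20. The interferon median lay between 0.05 and 0.91, was -0.01 with library quality weights, whose estimate did not fully converge, and without both replicate 1 libraries lay between -0.15 and 0.98.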
